A study of Mus musculus with 12 samples.

Results

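The addition of SB204990 to etomoxir + acetate was examined in 4T1 cells by spike-in scaled H3K27ac chromatin immunoprecipitation followed by sequencing (ChIP-seq). The comparison held 4 of the 12 libraries of the study, namely 2 libraries of etomoxir + acetate and 2 libraries of etomoxir + SB204990 + acetate, chosen by treatment label alone. 4T1 is a metastatic cell line derived from a mammary carcinoma of the mouse, and its genotype was labelled wild type. Both groups received acetate (5 mM) and etomoxir (50 µM) for 48 h, and the groups differed in SB204990 (50 µM). The libraries of each treatment carried 1 of 2 name suffixes, called set 1 and set 2 here, and the meaning of the suffix is not given in the sources used here. All libraries came from 1 cell line, and nothing states that the sets were separate cultures, so p-values measure the spread between these libraries, which may be technical. The remaining libraries were vehicle, acetate alone, etomoxir alone and etomoxir + SB204990, also for 48 h and with the same doses.

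H3K27ac is an acetyl group on histone H3 that marks active promoters and enhancers, and acetyltransferases place it using acetyl-CoA. In the cytosol and nucleus acetyl-CoA is made from citrate by ATP citrate lyase (Acly), the enzyme that SB204990 inhibits, and from acetate by acetyl-CoA synthetase (Acss2). Etomoxir inhibits carnitine palmitoyltransferase (Cpt1a), which admits long-chain fatty acids to mitochondria, where their oxidation feeds citrate. The comparison therefore asked how H3K27ac differed when ATP citrate lyase was inhibited in cells given acetate and an inhibitor of fatty acid entry.

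The deposited table gave 1 value per library for each of 126464 mouse intervals, which was the read count multiplied by a spike-in factor of the library. Reads in intervals were 13.7 M and 13.5 M (M, mega) without SB204990 and 13.3 M and 12.99 M with it, in set 1 and set 2. In each set exactly 1 library of the 6 had a factor of 1, so the sets may have been scaled apart from each other, and ratios within a set are given beside the group means, tests and counts of non-overlapping groups as deposited, which take both sets to be on the same scale. The etomoxir + SB204990 library of set 2, which was not one of the 4 compared, stood apart with 7.18 M reads and with 2.95% of its signal in the weakest quartile of intervals, against 0.966% to 1.48% in the other 11 libraries. Among the replicate pairs, the 2 libraries of etomoxir + SB204990 + acetate were the most alike in read counts (chi-square per degree of freedom of 1.34, against 1.41 to 6.46 in the other pairs).

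The summed H3K27ac signal was lower with SB204990 in both sets. The sum of scaled values was 13.7 M in set 1 and 12.9 M in set 2 with etomoxir + acetate, and 8.59 M and 11.3 M after SB204990 was added. Both libraries with SB204990 were below both libraries without it, and the set 1 library was the lowest. The ratio with to without SB204990 was 0.629 in set 1 and 0.872 in set 2, so the log2 difference was -0.67 and -0.20. The group means were 13.3 ± 0.521 M (SD, n = 2) and 9.93 ± 1.89 M (SD, n = 2), and the mean log2 ratio of -0.43 corresponds to 0.741-fold. An exact two-sided permutation test gave p = 0.333, which is the smallest value that 2 against 2 libraries allow, so the level difference could not pass 0.05 by this test.

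Most of this difference lay in the spike-in factors. The reads in intervals differed by ratios of only 0.973 in set 1 and 0.966 in set 2. The factors were 1 and 0.960 without SB204990 and 0.647 and 0.867 with it. Since the same factor applies to all intervals of its library, an error in it cannot be told apart from a change of H3K27ac over the whole genome. The median value per interval was 17 and 15.4 without SB204990 and 9.70 and 12.1 with it, again lower in both sets.

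**Figure D1:**
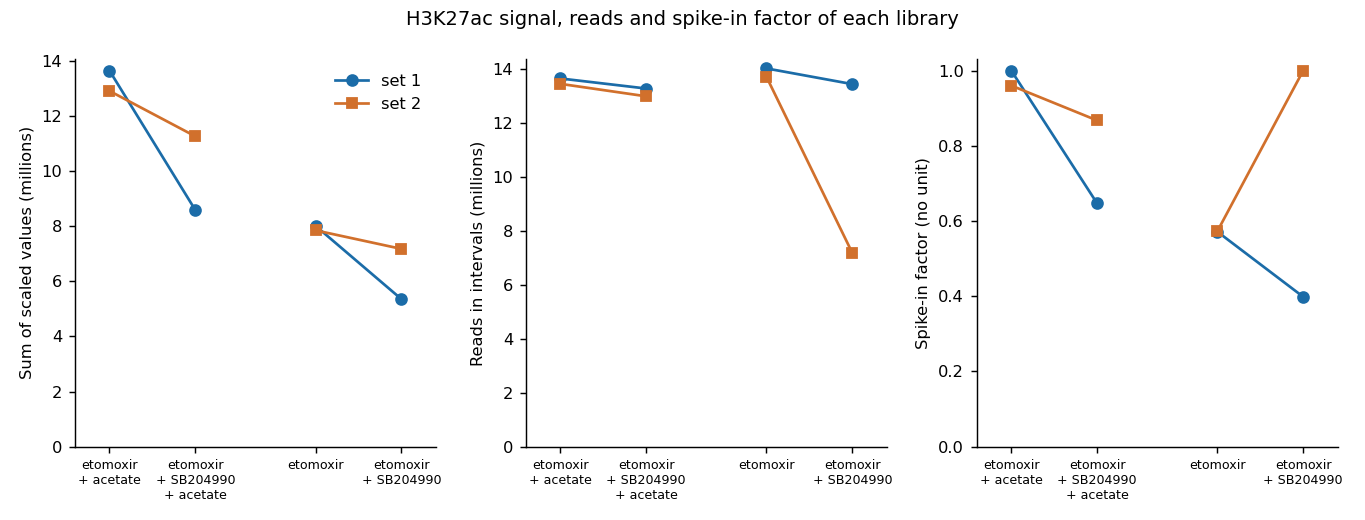
Sum of scaled H3K27ac values, reads in intervals (both in units of M) and spike-in factor (no unit) of the libraries with and without SB204990, with acetate on the left of each panel and without acetate on the right. Each point is 1 library and lines join libraries of a set. With acetate the sums differed by set (13.7 M to 8.59 M in set 1 and 12.9 M to 11.3 M in set 2), while reads stayed between 12.99 M and 13.7 M.

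The same addition without acetate was measured in other libraries. The sums were 8.01 M and 7.85 M with etomoxir and 5.35 M and 7.18 M with etomoxir + SB204990, which gave ratios of 0.668 in set 1 and 0.914 in set 2. With and without acetate, the set 1 ratio was the lower one. Over both backgrounds SB204990 libraries were lower in 4 of 4 pairs, with a mean log2 difference of -0.39 (0.761-fold) and an exact permutation p = 0.0556, the smallest that the 36 arrangements within backgrounds can give. In set 2 without acetate, the pair that holds the etomoxir + SB204990 library described above, the reads had a ratio of 0.524 and the factors one of 1.75.

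Single intervals were tested where the mean over the 12 libraries was at least 10, which 63903 intervals met and 62561 did not. With the values as deposited, 97.2% of the tested intervals had a log2 fold change below 0, with a median of -0.51 over both sets, -0.72 in set 1 and -0.28 in set 2. At an adjusted p under 0.05 (limma with Benjamini-Hochberg adjustment), 1 interval was called lower (0.00156% of those tested) and 0 were called higher. This count depended strongly on the libraries and the test: 13669 intervals were lower when the etomoxir + SB204990 library of set 2 was left out, 9696 without the etomoxir + SB204990 + acetate library of set 2, 3812 with the 4 compared libraries alone and 3065 by DESeq2 on recovered reads, against 1 by edgeR and 0 with no intensity trend. At an unadjusted p under 0.05, 17467 intervals were lower (27.3%) and 3 were higher (0.00469%). In 76.3% of the intervals both SB204990 libraries were below both others, and in 0.321% both were above.

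After each library was divided by its own sum, which removes the overall level, the comparison asks which intervals changed their share of the signal. The median log2 fold change was then -0.08, and the same single interval was called lower (0.00156%) while 0 were called higher. With the 4 compared libraries alone 325 intervals were higher and 271 lower, and 0 were called with a pseudocount of 5, by edgeR or DESeq2, or with any compared library left out. At an unadjusted p under 0.05, 1665 intervals had a lower share (2.61%) and 366 a higher share (0.573%). Non-overlapping groups were found in the lower direction in 29.7% of intervals and in the higher direction in 13.1%. The changes of the intervals in set 1 and set 2 had a Pearson correlation of 0.11 and a Spearman correlation of 0.15 across intervals, which are not independent replicates.

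The called interval lay on the Y chromosome (mm10, chrY:29071024-29071283), was annotated as intergenic and had Gm28986 as its nearest gene, with the gene start 76.6 kb away. Its reads were 31 and 25 with etomoxir + acetate and 0 and 0 after SB204990 was added, while the other 8 libraries held 15 to 31 reads. The libraries with SB204990 and acetate were therefore the only ones without a read there, and the etomoxir + SB204990 libraries had 15 and 31. A count of 0 allows up to 3 reads in a library, so the scaled signal was at least 16.0-fold lower in set 1 and at least 9.22-fold lower in set 2. The adjusted p was 1.31e-12 as deposited and 0.0055 after division by the library sum (limma with Benjamini-Hochberg adjustment). The interval was called in 11 of 12 alternative settings as deposited (adjusted p of 0.174 with no intensity trend) and in 6 of 14 as a share.

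An interval of the same behaviour lay on chromosome 13 (mm10, chr13:81989502-81989687) in intergenic sequence 100 kb from the start of Gm48155. It was below the minimum for the test and was found after the values were seen, in a search for intervals with no read in either library of a treatment and at least 10 reads in each library of the others. That search found 2 intervals for etomoxir + SB204990 + acetate and 0 for each other treatment. Its reads were 14 and 11 with etomoxir + acetate and 0 and 0 with SB204990 added, against 10 to 26 in the other 8 libraries, so its signal was at least 7.22-fold lower in set 1 and at least 4.06-fold lower in set 2.

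Both sequences are shown because they are the only intervals that this search found. They are printed on the plus strand of GRCm38, the build that mm10 names, in lower case with no capitals, since every base of both is soft-masked as repeat in the reference.
Y interval: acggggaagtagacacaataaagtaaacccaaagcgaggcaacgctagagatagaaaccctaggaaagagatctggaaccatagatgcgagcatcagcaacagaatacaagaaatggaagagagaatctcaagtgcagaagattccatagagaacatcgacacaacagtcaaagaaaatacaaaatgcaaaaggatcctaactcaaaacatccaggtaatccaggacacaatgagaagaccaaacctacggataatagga
chromosome 13 interval: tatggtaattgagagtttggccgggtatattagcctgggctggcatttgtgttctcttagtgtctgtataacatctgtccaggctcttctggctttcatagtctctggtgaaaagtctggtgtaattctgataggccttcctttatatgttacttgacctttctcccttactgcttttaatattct

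Copies of both sequences are abundant in the genome. In stretches of 36 bases taken every 12 bases, 18 of 19 from the Y interval occurred more than once in GRCm38 (median of 2640 copies), as did 13 of 13 from the chromosome 13 interval (median of 4901 copies). Only 93 of the 63848 tested intervals on the reference chromosomes (0.146%) were soft-masked throughout, and the median log2 fold change of these was -0.39 as deposited. Reads of a repeat can be placed at any of its copies, and how the aligner placed them was not tested. Over the 24 intervals of the Y chromosome the unscaled reads were 651 and 572 without SB204990 and 669 and 610 with it. The reads placed on these intervals as a whole were thus not lower with SB204990. The study is of female breast cancer, and whether reads placed on the Y chromosome came from it was not tested.

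**Figure D2:**
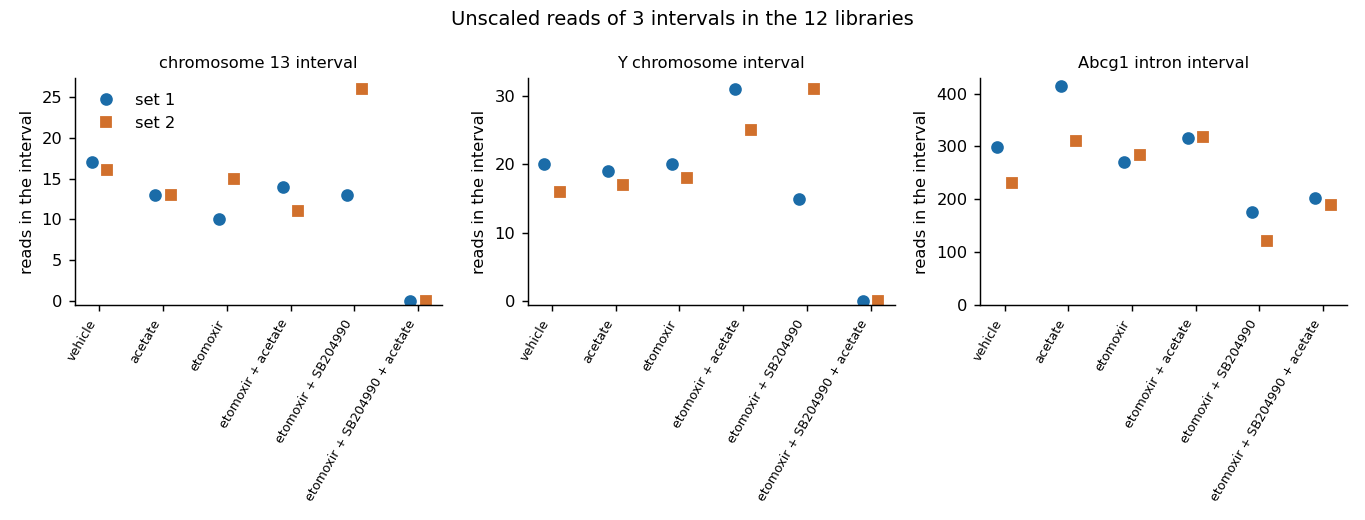
Unscaled reads in the chromosome 13 interval, the Y chromosome interval and the Abcg1 intron interval, in each of the 12 libraries by treatment. Each point is 1 library (circles set 1, squares set 2). The repeat intervals held 0 reads in both etomoxir + SB204990 + acetate libraries and at least 10 in every other library, while the Abcg1 interval was low in both treatments with SB204990.

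Of the tested intervals, the second lowest adjusted p belonged to an interval in an intron of Abcg1, a transporter that exports cholesterol from cells (mm10, chr17:31070774-31077923). Its scaled values were 316 and 304 with etomoxir + acetate and 131 and 164 with SB204990 added. Both libraries with SB204990 were far below both without it, and in unscaled reads the order was the same (316 and 317 against 203 and 189). The log2 fold change was -1.07 ± 0.23 (SE). The adjusted p of 0.0814 did not pass 0.05, while with the set as a term of the fit it was 0.0162 (limma with Benjamini-Hochberg adjustment). It passed in 6 of 14 alternative settings, with adjusted p-values from 0.000506 to 0.821. After division by the library sum it was -0.64 ± 0.13, with an unadjusted p of 0.000136 and an adjusted p of 1. Without acetate the interval was also lower with SB204990, by log2 values of -1.14 in set 1 and -0.42 in set 2.

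The central 300 bases of this interval (GRCm38, chr17:31074199-31074498, plus strand) are shown because it had the lowest p-value after the Y interval. Capitals mark the only match, on either strand, to 3 searched motifs, which were the AP-1 site (TGANTCA), the E-box (CACGTG) and the sterol regulatory element core (TCACNCCA).
Abcg1 interval: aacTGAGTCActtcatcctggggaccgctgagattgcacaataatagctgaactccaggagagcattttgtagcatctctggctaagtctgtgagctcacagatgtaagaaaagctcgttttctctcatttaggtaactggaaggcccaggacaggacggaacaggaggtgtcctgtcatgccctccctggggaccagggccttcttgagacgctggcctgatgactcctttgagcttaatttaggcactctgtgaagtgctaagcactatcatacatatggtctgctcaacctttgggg

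The AP-1 site was present in 7.81% of 32851 RefSeq promoter windows of the same length, so a match in 300 bases is not rare. The next intervals by p-value were one over exons and introns of Arid1a, a chromatin remodelling subunit, which the deposited annotation assigned to Pigv (mm10, chr4:133678529-133696409), and one over exons and introns of Il18rap, an interleukin receptor subunit (chr1:40526573-40533719). The Arid1a interval had scaled values of 735 and 677 without SB204990 and 320 and 448 with it, a log2 fold change of -0.90 ± 0.20 (SE). The Il18rap interval had 276 and 281 against 120 and 157, a log2 fold change of -1.02 ± 0.23. In both, the groups did not overlap, and 6 of 14 alternative settings called each. The adjusted p was 0.0916 for each, and 0.0241 for each with the set as a term of the fit (limma with Benjamini-Hochberg adjustment).

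No interval other than the Y interval was called, so the intervals with the largest change shared by both sets, at a mean of at least 50, are given as examples that the fit over 12 libraries did not call. Among the lower ones, an intron interval of Sgpl1, the sphingosine phosphate lyase (chr10:61133735-61136388), had scaled values of 94 and 113 without SB204990 and 44.0 and 43.4 with it. An interval over exon and intron of Mthfd1l, a mitochondrial enzyme of folate metabolism (chr10:4041172-4044674), had 100 and 87.4 against 42.0 and 41.6, and one over exon and intron of Mbtps1, a protease that releases membrane-bound transcription factors, which the deposited annotation assigned to Slc38a8 (chr8:119518122-119520858), had 108 and 90.2 against 51.7 and 36.4. An exon interval of Usp4, a deubiquitinating enzyme (chr9:108382686-108386248), had 106 and 120.0 against 51.7 and 57.2, and an intron interval of Rgsl1 (chr1:153835118-153837009) had 102 and 85.4 against 39.5 and 41.6. These 5 differed by log2 values of -1.22 to -1.04, for none did the groups overlap, and 2 or 3 of 13 alternative settings called each. The largest lower change as a share was that of an intergenic interval near Cyp26a1, a retinoic acid hydroxylase (chr19:37813034-37815327), with deposited values of 117 and 99.8 against 35.6 and 49.4. Its log2 fold change was -1.34 as deposited and -0.92 as a share, and 4 of 13 alternative settings called it as deposited. In the higher direction the largest as deposited was an intergenic interval near Ighv1-69 (chr12:115628417-115631672), which had 48 and 55.7 without and 59.5 and 68.5 with SB204990, a log2 fold change of 0.30 ± 0.33 (SE). One of those named for a higher share was a promoter interval of Gabbr1, a receptor subunit for the transmitter GABA (chr17:37045279-37047663). It had 107 and 101 as deposited against 104 and 133, which overlap, and a higher share in both sets (0.60 ± 0.16 after division by the library sum, adjusted p of 1, limma with Benjamini-Hochberg adjustment).

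The difference varied with the strength of the interval. Strength was ranked by the mean of the vehicle and acetate libraries, which take no part in the comparison. The summed signal of the strongest 1% of intervals (1265) differed by log2 values of -0.61 in set 1 and -0.12 in set 2. In the second quartile from the bottom (31616 intervals) the values were -0.84 and -0.38, and in the weakest quartile -0.78 and -0.33. In both sets the summed signal of the strongest intervals thus differed less than that of the weak ones. The median interval did not follow this order throughout. It differed by -0.63 and -0.15 in the weakest quartile and by -0.61 and -0.13 in the strongest 1%. After division by the library sum the strongest 1% was higher by 0.06 and 0.08 on the log2 scale, and the second quartile was lower by 0.17 and 0.19. The sum of the weakest quartile was lower (-0.11 and -0.13), while its median interval was higher (0.04 and 0.05). The strongest 1% held 29.7% and 30.2% of the signal without SB204990 and 31.0% and 31.9% with it.

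By annotation the differences were smaller. Promoter intervals (8348) differed by log2 values of -0.63 in set 1 and -0.15 in set 2, and their part of the signal was 12.4% and 12.5% without SB204990 and 12.8% and 12.9% with it. Intron intervals (65075) differed by -0.68 and -0.21, intergenic intervals (37064) by -0.66 and -0.21, and exon intervals (7818) by -0.66 and -0.18. Promoters thus stood 0.04 and 0.05 above the library as a whole, and the other annotated classes within 0.02 of it. Across 20 chromosomes other than Y the summed signal differed by -0.69 to -0.64 in set 1 and by -0.22 to -0.17 in set 2, so no chromosome departed from the rest. These values describe sums over intervals of 4 libraries and were not tested, since intervals are not replicates.

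**Figure D3:**
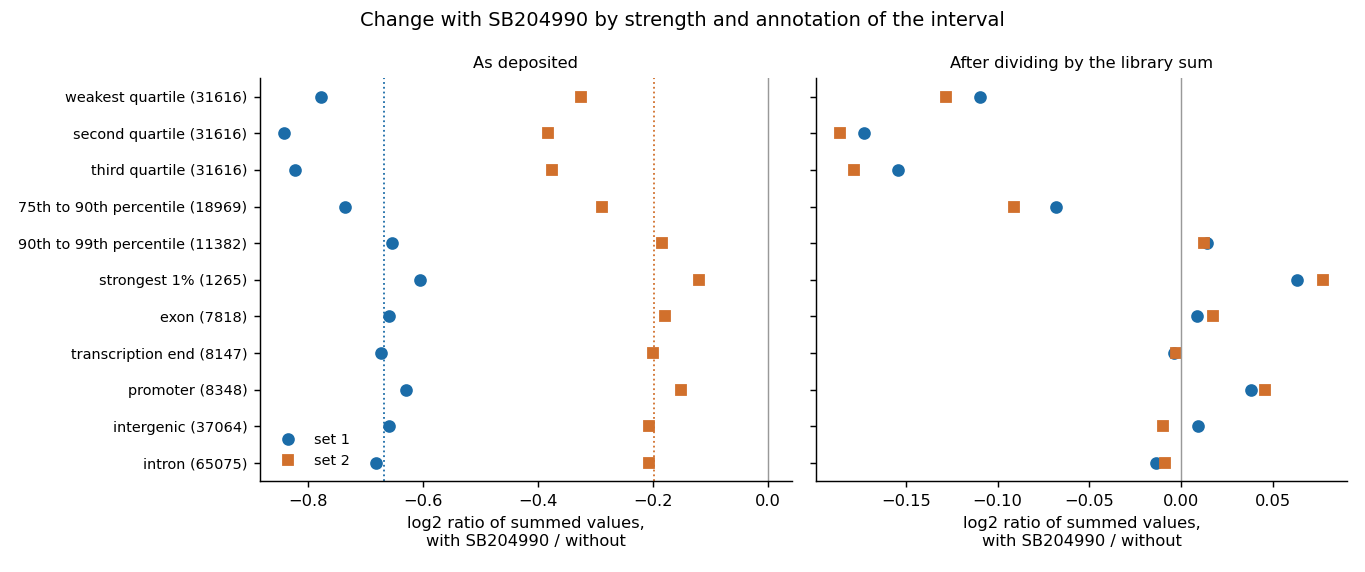
Log2 ratio of summed H3K27ac signal with to without SB204990, by strength and annotation of the interval (number of intervals in brackets), as deposited and after dividing by the library sum. Circles are set 1, squares are set 2, dotted lines mark the whole library, and in both sets the strongest 1% (-0.61 and -0.12) lay above the second quartile (-0.84 and -0.38).

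For genes, intervals that the deposited annotation gave the same symbol were summed, and 19458 symbols with a mean of at least 10 were tested. The median log2 fold change was -0.46 over both sets, -0.69 in set 1 and -0.23 in set 2. As deposited, 1 gene was called lower (0.00514%) and 0 were called higher, and the called gene was Gm28986, through the Y interval (adjusted p of 0.00613, limma with Benjamini-Hochberg adjustment), a call that 3 of 8 alternative settings made (highest adjusted p of 0.636). At an unadjusted p under 0.05, 7537 genes were lower (38.7%) and 0 were higher. Groups did not overlap in 85.6% of genes in the lower direction and in 0.37% in the higher direction. After division by the library sum 0 genes were called in either direction, 434 had an unadjusted p under 0.05 with a lower share (2.23%) and 146 with a higher share (0.75%), the median was -0.03, and non-overlapping groups were found in 30.5% with a lower and in 18.2% with a higher share. This balance turned with median-of-ratios scaling, which centres the typical interval in place of the sum: the median was then 0.05, with 14.3% lower and 35.8% higher, and the medians of all groups described below except the 4 displayed EMT genes (-0.06) lay above 0. Gene groups below are read against the median and percentages of the same scaling, and the fit over 12 libraries called no member of any group at an adjusted p under 0.05 in either scaling. The count as deposited was far higher without the etomoxir + SB204990 + acetate library of set 2. With the 4 libraries alone, 30 of the 61 genes recomputed under each setting were called as shares. Of all 19458 genes that setting called 336 higher and 443 lower. The 61 were named in part for their values in these same libraries, so their higher rate is no result.

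Genes of acetyl-CoA supply followed the library as a whole. Of the 22 listed genes 19 could be tested, and 7 had an unadjusted p under 0.05 in the lower direction, beside 38.7% of all genes. The median log2 fold change of the 19 was -0.44 as deposited and -0.01 as a share of the library. Acly, the target of SB204990, had summed values of 902 and 902 with etomoxir + acetate and 611 and 837 with SB204990 added. Both treated libraries were lower, the set 2 library only slightly, and the log2 fold change was -0.33 ± 0.21 (SE) with an unadjusted p of 0.127 (limma). As a share of the library Acly was higher in both sets, with a log2 difference of 0.10 ± 0.08 and values of 602 and 637 against 649 and 677 (values divided by the library sum are set to the mean sum of 9.12 M).

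The interval at the Acly promoter (mm10, chr11:100518353-100529361) held 697 and 726 unscaled reads without SB204990 and 743 and 779 with it, so in reads the order was turned and the lower scaled level came from the factors. The RefSeq promoter window of Acly that this interval covers (GRCm38.p6, chr11:100527951-100528250, minus strand) is shown as the promoter of the inhibited enzyme, in lower case with no capitals because none of the 3 motifs matched.
Acly promoter: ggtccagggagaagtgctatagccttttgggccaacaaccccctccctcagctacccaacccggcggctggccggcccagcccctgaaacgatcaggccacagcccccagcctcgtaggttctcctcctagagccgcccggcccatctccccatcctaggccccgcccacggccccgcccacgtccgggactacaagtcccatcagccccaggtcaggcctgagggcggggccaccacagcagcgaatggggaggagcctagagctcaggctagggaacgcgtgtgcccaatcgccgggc

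Of all promoter windows 7.15% held an E-box and 4.36% a sterol regulatory element core, and of the 430 windows of listed genes 8.60% and 7.21% did. The lists were chosen by hand and include genes of sterol and fatty acid synthesis, so these shares describe the lists and not the comparison. Acss2, which activates acetate in the cytosol and nucleus, had 75 and 76.8 without SB204990 and 49.8 and 59.0 with it. Both libraries with SB204990 were lower as deposited (log2 fold change of -0.48 ± 0.37), and as a share the sets went opposite ways (0.08 in set 1 and -0.18 in set 2). Acss1, its mitochondrial counterpart, was below the minimum with values of 4 and 8.64 against 1.29 and 5.20. Slc25a1, which exports citrate from mitochondria, had 747 and 732 against 534 and 661, a log2 fold change of -0.31 ± 0.19 and a share higher by 0.12 ± 0.07. The lowest tested member was Acot12, an acetyl-CoA thioesterase, with 103 and 102 against 51.1 and 70.2 (log2 fold change of -0.76 ± 0.34). Dlat, the acetyltransferase subunit of pyruvate dehydrogenase, had 662 and 614 against 369 and 481, a log2 fold change of -0.60 ± 0.21 with an unadjusted p of 0.00852 (limma).

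Genes that use acetyl-CoA for lipids were lower to about the same extent as the median gene. In fatty acid synthesis 20 of 24 genes were tested, with a median of -0.44 as deposited and -0.01 as a share. Of the 20, 9 had an unadjusted p under 0.05 in the lower direction, beside 38.7% of all genes. Fasn, the fatty acid synthase, had 1467 and 1399.7 without SB204990 and 1011 and 1268 with it, a log2 fold change of -0.34 ± 0.18. Acsl4, which activates polyunsaturated fatty acids, had 2494 and 2418 against 1671 and 2186. Acacb, the acetyl-CoA carboxylase whose product restrains carnitine palmitoyltransferase, was the lowest of this list with 196 and 172 against 112 and 121 (-0.65 ± 0.30). In each of these the groups did not overlap as deposited.

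In cholesterol synthesis and uptake 27 of 29 genes were tested, with a median of -0.41 as deposited and 0.02 as a share. Of the 27, 7 had an unadjusted p under 0.05 in the lower direction, beside 38.7% of all genes. Hmgcs1, which condenses acetyl-CoA into the sterol pathway, had 362 and 324 without SB204990 and 248 and 333 with it, so the groups overlapped. Srebf2, the transcription factor of sterol genes, had 1260 and 1170.3 against 843 and 1132. As a share of the library both genes were higher with SB204990 in both sets, by 0.18 ± 0.09 and 0.12 ± 0.07. The highest share difference of the list was that of Stard4, a sterol carrier (177 and 142 against 135 and 147, a share higher by 0.26 ± 0.17).

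Targets of the fatty acid sensing PPAR receptors and genes of fatty acid oxidation had a median of -0.43 as deposited and 0.00 as a share. Of 32 genes 26 were tested, and 9 had an unadjusted p under 0.05 in the lower direction, beside 38.7% of all genes. Cpt1a, the target of etomoxir, had 2883 and 2667 without SB204990 and 2024 and 2706 with it. The set 2 libraries were nearly level, and the log2 fold change was -0.24 ± 0.19 with an unadjusted p of 0.216 (limma). Its share was higher in both sets, by 0.19 ± 0.08 with an unadjusted p of 0.0371 and an adjusted p of 1 (limma with Benjamini-Hochberg adjustment), although its promoter interval alone gave a lower share (-0.15). Pdk4, which restrains pyruvate dehydrogenase, had 3285 and 3289 against 2339 and 3113, and Plin2, a lipid droplet coat protein, had 3744 and 3494 against 2585 and 3301. Both had a higher share in both sets (0.15 ± 0.08 and 0.12 ± 0.09). Hadha, a subunit of the mitochondrial beta-oxidation enzyme, stood at the low end with 241 and 219.8 against 119.7 and 151 (-0.77 ± 0.28), and its share was lower by 0.34 in each set.

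Among histone acetyltransferases 12 of 13 genes were tested, and 5 had an unadjusted p under 0.05 in the lower direction, beside 38.7% of all genes. The median was -0.46 as deposited and -0.03 as a share, close to those of all genes. Ep300 and Crebbp, which acetylate lysine 27 of histone H3, had 929 and 921 against 614 and 878, and 466 and 455 against 302 and 382. Their log2 fold changes were -0.33 ± 0.20 and -0.44 ± 0.22, and their shares differed by 0.10 ± 0.18 and -0.01 ± 0.08. Kat6a had 1663 and 1517 against 942 and 1249.7 (-0.55 ± 0.20). Ncoa3, a nuclear receptor coactivator, was lowest with 1076 and 1003 against 535 and 731, and its share was also lower in both sets (-0.30 ± 0.13, unadjusted p of 0.0396, limma).

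For bromodomain proteins, which bind acetylated histones, 14 of 17 genes were tested and 12 of them had an unadjusted p under 0.05 in the lower direction, beside 38.7% of all genes. Their median of -0.49 was close to the -0.46 of all genes, and as a share it was -0.06. Baz1a, a subunit of a nucleosome remodelling complex, was lowest with 611 and 511 without SB204990 and 300.1 and 355 with it (-0.77 ± 0.25). For histone deacetylases and sirtuins 17 of 18 genes were tested, with a median of -0.48 as deposited and -0.04 as a share.

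The epithelial-to-mesenchymal transition (EMT) was represented by 4 genes whose tracks the study displayed, and all 4 were lower without overlap, as were 85.6% of all genes. The study displayed them as genes of interest in these same samples, so their direction is not independent evidence. Postn, a matricellular protein, had 1960 and 1942 with etomoxir + acetate and 1079 and 1450.1 with SB204990 added, a log2 fold change of -0.64 ± 0.19 (unadjusted p of 0.00282, adjusted p of 0.123, limma with Benjamini-Hochberg adjustment). Col1a1, a chain of type I collagen, had 1125 and 977 against 602 and 771 (-0.62 ± 0.21). Sparc, a collagen-binding matrix protein, had 1930 and 1863 against 1131 and 1519 (-0.53 ± 0.20). Itga5, a subunit of the fibronectin receptor, had 1055 and 1054 against 658 and 906 (-0.45 ± 0.21).

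As a share of the library none of the 4 was called, and differences between them were not tested. Postn was lower in both sets (-0.19 and -0.22, unadjusted p of 0.0119) and so was Col1a1 (-0.23 and -0.14, unadjusted p of 0.0366), while Sparc differed by -0.10 ± 0.09 and Itga5 by -0.02 ± 0.08 (limma). Without acetate the shares of Postn (-0.23 in set 1, -0.03 in set 2) and Col1a1 (-0.28 and 0.02) were lower mainly in set 1.

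The wider matrix list resembled the genome. Of 46 collagens and matrix genes 37 were tested, and 17 had an unadjusted p under 0.05 in the lower direction, beside 38.7% of all genes. The median was -0.44 as deposited and -0.01 as a share. Col4a1, a basement membrane collagen and the strongest of the list, had 15460 and 15118 against 10306 and 13885 (-0.35 ± 0.18), and its share was higher by 0.08 ± 0.06. Bgn, the proteoglycan biglycan, had 515 and 521 against 281 and 399.8 (-0.63 ± 0.22), and its share was lower by 0.20 ± 0.10. Of 12 integrin genes 10 had an unadjusted p under 0.05 in the lower direction, beside 38.7% of all genes. The median of the 12, -0.46, equalled that of all genes to 2 decimals.

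Among matrix metalloproteinases and protease inhibitors 17 of 17 genes were tested, with a median of -0.46 as deposited and -0.03 as a share. Mmp9, a gelatinase, had 1957 and 1817 without SB204990 and 997 and 1342 with it, a log2 fold change of -0.70 ± 0.19. Its share was lower by 0.30 in set 1 and 0.24 in set 2 (unadjusted p of 0.000976, adjusted p of 1, limma with Benjamini-Hochberg adjustment), and without acetate by 0.40 and 0.29 in other libraries. Serpine2, an inhibitor of serine proteases, had 654 and 613 against 339 and 405 (-0.77 ± 0.22), with a share lower by 0.34 ± 0.11. Both genes showed no overlap in either scaling.

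Transcription factors of EMT had a median of -0.35 as deposited and 0.08 as a share, with 11 of 13 genes tested. Sox9 had 1889 and 1995 against 1406 and 2027, which overlap, and a share higher by 0.24 and 0.22 in set 1 and set 2. In the mesenchymal cytoskeleton list (13 of 19 tested, medians of -0.37 and 0.06) the members diverged. Acta2, smooth muscle actin, had 122 and 129.6 against 64.0 and 78.9 (-0.81 ± 0.33). Tpm1, a tropomyosin, had 7459 and 7220.3 against 4909 and 6606 (-0.37 ± 0.17), and S100a4, a calcium-binding protein of motile cells, had 4746 and 4894 against 3461 and 4824. The shares of Tpm1 and S100a4 were higher in both sets (0.07 ± 0.09 and 0.19 ± 0.13), while that of Acta2 was lower (-0.38 ± 0.21). Of 16 tested genes of TGF-beta signalling 12 had an unadjusted p under 0.05 in the lower direction, beside 38.7% of all genes. The median of the 16 was -0.46, close to that of all genes, and the share median was -0.03.

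The median of the epithelial genes lay slightly above that of all genes. Of 26 epithelial junction and identity genes 23 were tested, with a median of -0.40 as deposited and 0.03 as a share. Krt8, the keratin of simple epithelia, had 5744 and 5442 without SB204990 and 3762 and 5200.1 with it. Cldn4, a tight junction claudin, had 4132 and 3792 against 2751 and 3616, and both genes had shares higher by 0.09 ± 0.09 and 0.10 ± 0.11. Tjp1, a tight junction scaffold, went the other way with 2804 and 2525 against 1589 and 1994 and a share lower by 0.15 ± 0.06 (unadjusted p of 0.0404, limma), as did Grhl2, an epithelial transcription factor (1387 and 1223 against 776 and 983, share lower by 0.14 ± 0.10).

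The groups with the smallest lower medians included those of ribosomes, AP-1, stress and glycolysis, beside the EMT transcription factors above. Of 29 cytosolic ribosomal protein genes 23 were tested, with a median of -0.34 as deposited. Of the 23, 4 had an unadjusted p under 0.05 in the lower direction, beside 38.7% of all genes. After division by the library sum their median was 0.10, the SB204990 libraries were higher without overlap in 16 of 23 (18.2% of all genes) and lower in 0 (30.5% of all genes). With median-of-ratios scaling the counts were 21 and 0, beside 35.8% and 14.3% of all genes. Rplp0, a stalk protein of the large ribosomal subunit, had 8027 and 7587 without SB204990 and 5501 and 7452 with it. Rpl13 had 1178 and 1225 against 865 and 1274, which overlap. Their shares were higher by 0.15 ± 0.10 and 0.24 ± 0.22. Without acetate the share of Rplp0 was higher in set 1 (0.13) and lower in set 2 (-0.23).

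Glycolysis genes (16 of 18 tested) had a median of -0.36 as deposited and 0.07 as a share. The share was higher without overlap in 8 (18.2% of all genes) and lower in 0 (30.5% of all genes). With median-of-ratios scaling the counts were 11 and 0, beside 35.8% and 14.3% of all genes. Gapdh had 1506 and 1419 without SB204990 and 1115 and 1539 with it, so the set 2 library with SB204990 was the highest of the 4. Eno1 had 5974 and 5634 against 4096 and 5283, and Pkm had 4331 and 4320.1 against 3019 and 3996. Aldoa, the aldolase of muscle type, had 2301 and 2233 against 1714 and 2194. The shares were higher by 0.27 ± 0.15, 0.11 ± 0.08, 0.12 ± 0.11 and 0.21 ± 0.10 in that order, and none had an unadjusted p under 0.05.

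Targets of the integrated stress response (22 of 25 tested) had medians of -0.36 and 0.07. The share was higher without overlap in 10 (18.2% of all genes) and lower in 0 (30.5% of all genes). With median-of-ratios scaling the counts were 16 and 0, beside 35.8% and 14.3% of all genes. Ddit4, an inhibitor of mTOR signalling, had 7640 and 7128 against 4980.3 and 6574. Slc3a2, the heavy chain of an amino acid transporter, had 2433 and 2250.3 against 1656 and 2116, and Nupr1, a stress-induced chromatin protein, had 2254 and 2084 against 1497 and 1916. These 3 did not overlap as deposited. Cebpg, a partner of ATF4, had 414 and 369 against 323 and 407, which overlap, and a share higher by 0.32 ± 0.17.

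AP-1 factor genes (9 of 11 tested) had the highest median of the lists of carcinoma functions, at -0.33 as deposited and 0.10 as a share. The share was higher without overlap in 4 (18.2% of all genes) and lower in 0 (30.5% of all genes). With median-of-ratios scaling the counts were 7 and 0, beside 35.8% and 14.3% of all genes. Fosl2 had 4697 and 4695 without SB204990 and 3224 and 4623 with it, Junb had 5673 and 5626 against 3867 and 5466, and Jund had 3497 and 3389 against 2479.8 and 3305. The set 2 values lay close together in all 3 and the set 1 values far apart. The median value of a gene over the 12 libraries was 1061 for AP-1 factors, 773 for glycolysis, 764 for ribosomal proteins, 346 for the integrated stress response and 213 for all genes. Other groups of strong genes lay on either side of 0 as shares. Integrins (1773, share median of -0.02), TGF-beta signalling (969 and -0.03), bromodomain proteins (672 and -0.06) and the 4 displayed EMT genes (999.6 and -0.15) lay below 0, while mammary epithelial markers (1041 and 0.05), EMT transcription factors (839 and 0.08) and epithelial junction genes (816 and 0.03) lay above it. The part that strength plays in these group values was not tested.

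**Figure D4:**
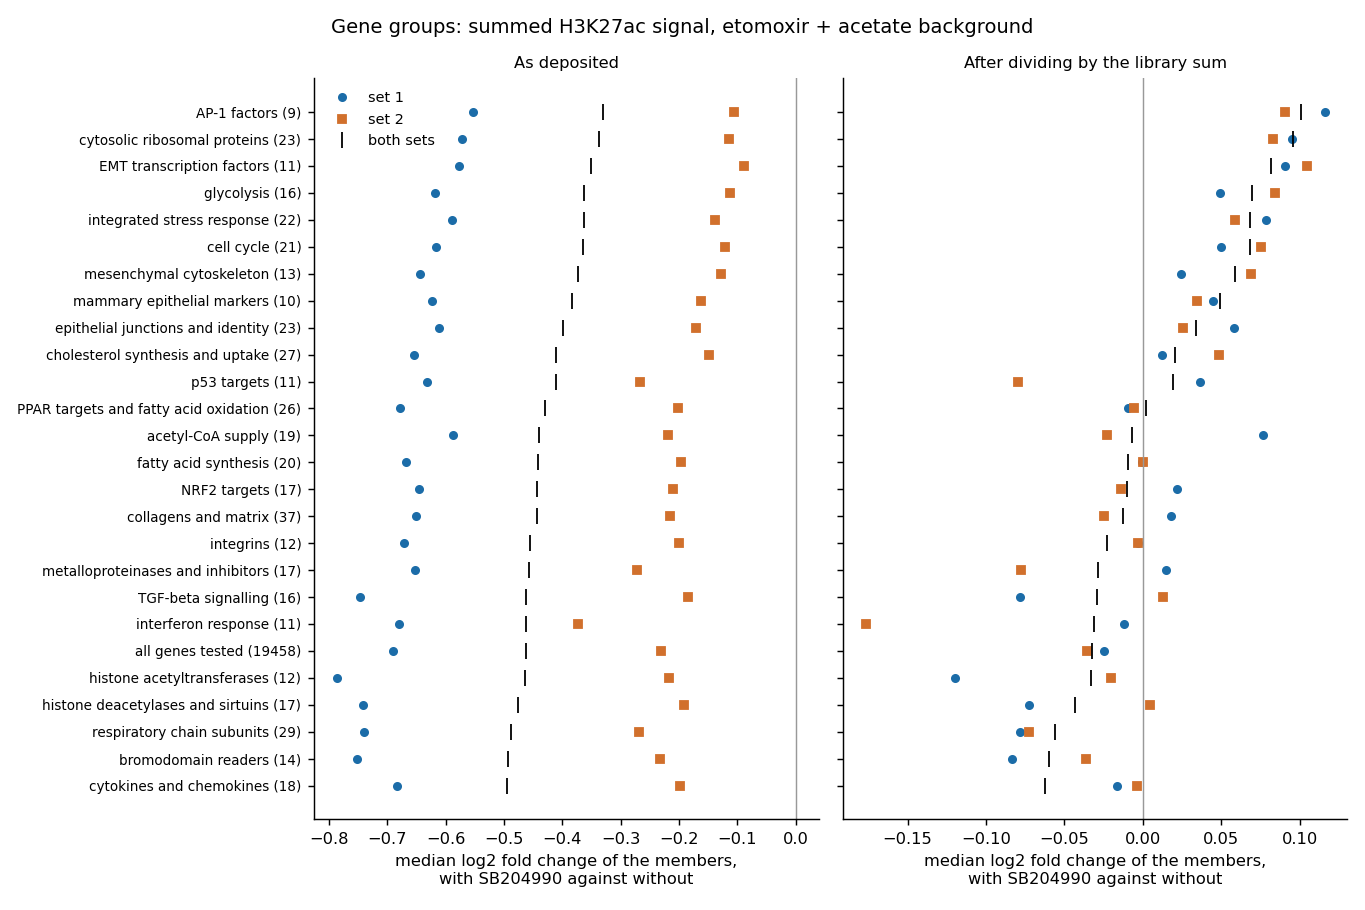
Median log2 fold change of gene groups with SB204990 against without (number of tested genes in brackets, groups with at least 9), as deposited and after dividing by the library sum. Circles are set 1, squares set 2 and ticks the fit over both, and all groups lay below 0 as deposited while shares ran from -0.06 for cytokines and chemokines to 0.10 for AP-1 factors.

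The remaining groups lay between these ends. Medians as deposited were -0.50 for cytokines and chemokines (18 of 21 tested), -0.49 for respiratory chain subunits (29 of 31), -0.46 for interferon response (11 of 15), -0.44 for NRF2 targets (17 of 17), -0.41 for p53 targets (11 of 12) and -0.36 for cell cycle genes (21 of 22). As shares they were -0.06, -0.06, -0.03, -0.01, 0.02 and 0.07. None of these departed from the median of all genes by more than 0.10 as deposited.

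Markers of the labelled cell type were compared with those of others. Of 12 mammary epithelial markers 10 were tested, with a median value per gene of 1041 over the 12 libraries, against 61.1 for the 5 of 8 leukocyte markers tested and 35.4 for the 3 of 4 adipocyte markers tested. Endothelial markers (4 of 5 tested) had 104 and neuron markers (3 of 4) had 129. Of 4 hepatocyte markers only Apoa1 was tested, with a value of 1466, and no interval carried the symbols Alb or Ttr. Among the mammary markers no interval carried Krt18 or Krt7, and among the leukocyte markers none carried Adgre1 or Lyz2. The median change of the mammary markers was -0.38 as deposited and 0.05 as a share, and that of the leukocyte markers was -0.46 and -0.03.

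At a mean of at least 50, the genes with the largest change shared by both sets were all lower, and the fit over 12 libraries called none of them. Abcg1 summed over its 5 intervals had 377 and 374 without SB204990 and 162 and 196 with it, a log2 fold change of -1.07 ± 0.25 (unadjusted p of 0.00028, adjusted p of 0.123, limma with Benjamini-Hochberg adjustment), and 3 of 9 alternative settings called it. Its share was lower by 0.54 in set 1 and 0.73 in set 2, and without acetate by 0.63 and 0.22. Polh, a DNA polymerase that copies past damage, had 123 and 112 against 53.04 and 54.6 (-1.11 ± 0.40).

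Gcm1, a transcription factor of the placenta, had 123 and 124 against 51.1 and 71.1 (-1.02 ± 0.32), and Ckap5, a microtubule polymerase, had 103 and 96 against 40.1 and 52.9 (-1.09 ± 0.37). The unnamed gene models Gm17110, Gm50013 and Gm16278 had log2 fold changes of -1.10, -1.12 and -1.05, and Rgsl1 one of -0.99. In each of these genes both libraries with SB204990 were below both without, as in 85.6% of all genes. In the higher direction Gm597 had 42 and 43.2 against 48.5 and 71.1 (0.45 ± 0.57), and Cdh19, a cadherin, had 45 and 34.6 against 46.6 and 51.2 (0.30 ± 0.59). Both are weak genes whose standard error exceeded the difference, and the mean of Cdh19 over the 12 libraries as deposited was under 50.

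**Figure D5:**
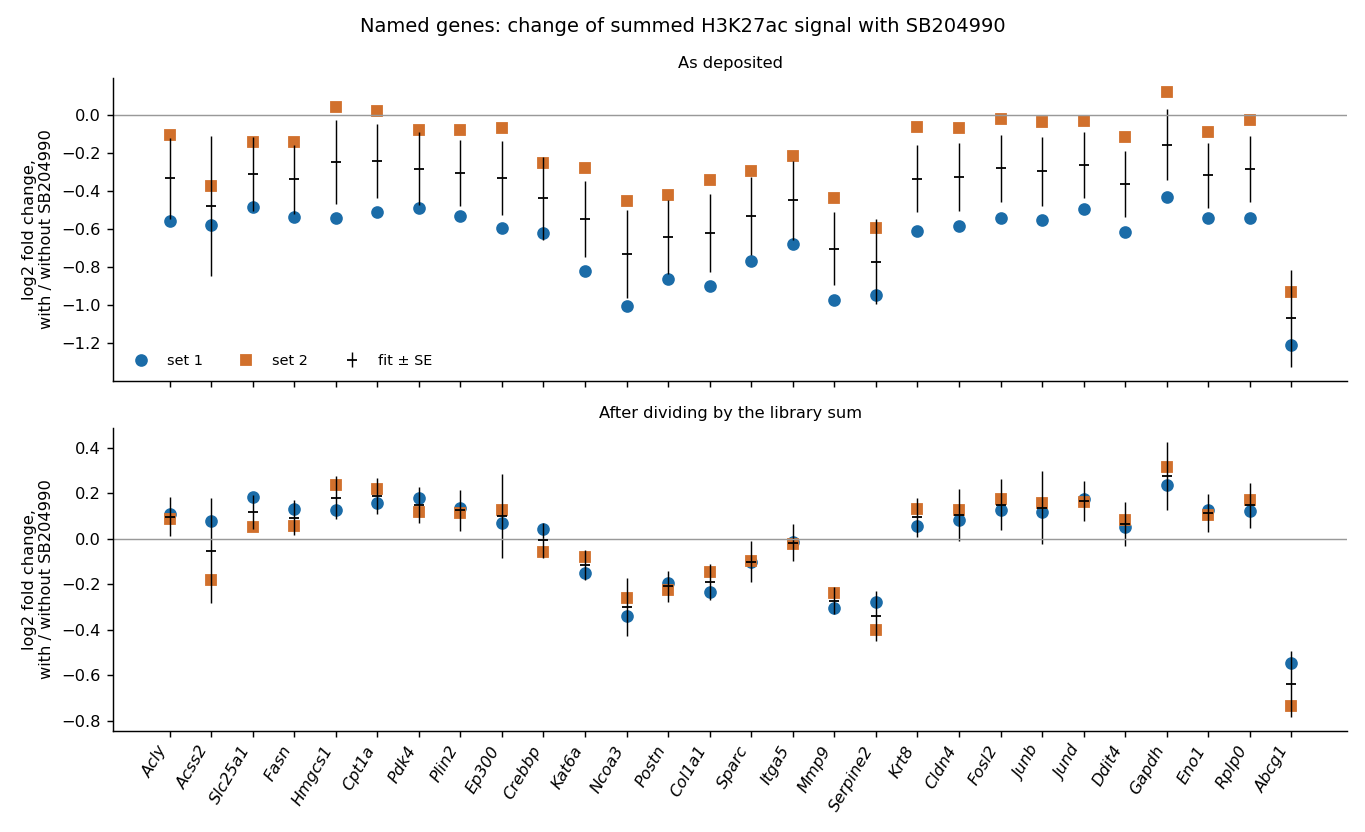
Log2 fold change of summed H3K27ac signal with SB204990 for named genes, as deposited (top) and after dividing by the library sum (bottom). Circles are set 1, squares set 2, and ticks with bars the limma estimate ± SE. As deposited set 1 lay below set 2 in all genes shown, and as a share the sets lay closer together, with Abcg1 the lowest of the genes shown (-0.64).

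The change with SB204990 in the presence of acetate was finally set against the change in its absence, (etomoxir + SB204990 + acetate minus etomoxir + acetate) minus (etomoxir + SB204990 minus etomoxir). As deposited 2 of the tested intervals differed (0.00313%, limma with Benjamini-Hochberg adjustment) and 0 genes did. After division by the library sum 0 intervals and 0 genes differed. Without the etomoxir + SB204990 library of set 1, 1937 intervals differed as deposited and 1596 as shares. The Y interval was one of the 2 (adjusted p of 8.75e-06), and since both etomoxir + SB204990 + acetate libraries were at 0 reads the size of its fitted difference depends on the pseudocount.

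The other covered a ribosomal RNA sequence on chromosome 17 (mm10, chr17:39843038-39847203) that overlaps Gm26917, CT010467.1, Gm42418 and AY036118. Its scaled values were 2324 and 1475 with etomoxir + acetate and 1738 and 2150.0 with SB204990 added, which overlap (log2 fold change of 0.06 ± 0.17). The difference between backgrounds was -1.22 (adjusted p of 0.0234, limma with Benjamini-Hochberg adjustment). Without acetate the log2 difference with SB204990 was -0.24 in set 1 and 2.80 in set 2, and the etomoxir + SB204990 library of set 2 held 5093 unscaled reads against 1273 to 2853 in the other libraries. When that library was left out, 1 interval was called, the Y interval. Acly, Cpt1a, Postn, Col1a1, Sparc, Itga5 and Abcg1 each had an adjusted p of 1 for this difference as deposited (limma with Benjamini-Hochberg adjustment).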

How the data were processed

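H3K27ac ChIP-seq with 7.5% human chromatin as spike-in was performed by the authors on 12 libraries of 4T1 cells (6 treatments, 2 libraries each). Per the labels and the study's methods, reads were processed with the nf-core/chipseq workflow on merged human (GRCh38) and mouse (mm10) genomes. Whether intervals were called on pooled libraries is not given in the sources used here. The deposited signal values are read counts times 1 spike-in factor per library, and the deposited counts of the 2 libraries with a factor of 1 are unscaled. In all libraries 100% of values were whole multiples of the factor within 0.01, so reads were recovered.

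Intervals, and genes as sums of the intervals of a symbol, were tested as log2(value + 1) with limma 3.58.1 (R 4.3.3), an intensity trend, 6 group means over 12 libraries and 6 residual degrees of freedom, if the mean was at least 10. Fold changes on this scale understate weak intervals. Benjamini-Hochberg adjusted p under 0.05 was called. The same fit followed division of each column by its sum. Reads in intervals ranged from 7.18 M to 16.7 M, and 0.409% to 1.06% of intervals had no read, where 0 allows up to 3 reads (counting error only). Intervals were named by the largest smaller change of the sets (mean of at least 50), by a call, or, after values were seen, among the 4 lowest p-values. For lists, the strongest and the extreme members were named, beside genes of the pathway under study. Members and lists were chosen with earlier results of these data known. Alternatives included edgeR 4.0.16 and DESeq2 1.42.0 on recovered reads, other filters, pseudocounts and scalings, left-out libraries and a replicate block. RefSeq promoters (GRCm38.p6) matched 350 of 477 listed genes. No input library was used here, and some listed genes are not reported here.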

Additional observations from a re-analysis of the deposited data

Results flagged for a closer look

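The change with SB204990 differed with and without acetate in an interval on the Y chromosome near Gm28986 (adjusted p of 8.75e-06, limma with Benjamini-Hochberg adjustment). Both etomoxir + SB204990 + acetate libraries had no read there, so the fitted difference of -5.16 on the log2 scale is set by the pseudocount and is no bound, and with acetate the signal was at least 16.0-fold lower in set 1 and at least 9.22-fold lower in set 2. In the ribosomal RNA interval of Gm42418 the difference was -1.22 (adjusted p of 0.0234), with 5093 unscaled reads in the etomoxir + SB204990 library of set 2. For the share of Itga5 in the library both sets were lower with SB204990 in the presence of acetate and both were higher in its absence, and the tested difference of -0.10 was not past the threshold (adjusted p of 0.948).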

How the results depend on the processing

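The lower level held its direction in every alternative run (share of reads times factor, stronger intervals only, the median over intervals, both backgrounds, and each library left out, -0.63 to -0.24 on the log2 scale), and none could be tested below its smallest p. These runs could not check the spike-in factors, since all of them used the same factors. Both libraries with SB204990 lay below both without it, so leaving out 1 of them could not turn the direction. Counts of calls varied between the alternatives. As deposited, 1 interval was lower, against 19 with a mean of at least 50, 2 with no filter, 0 with no intensity trend, 3812 with the 4 libraries alone, 13669 (and 1 higher) without the etomoxir + SB204990 library of set 2, 22 with the set as a replicate block, 1 by edgeR and 3065 by DESeq2 on recovered reads, and 1 to 9696 with one of the 4 compared libraries left out (9696 without etomoxir + SB204990 + acetate of set 2). For genes the count of 1 became 0 with a pseudocount of 5, a mean of at least 50, no trend or promoter intervals only, 68 with the 4 libraries, 2 with the replicate block and 0 to 7086 with a library left out (7086 without the same library). As shares, the 1 lower interval became 0 with a pseudocount of 5, a mean of at least 50, no trend, edgeR or DESeq2, and 0 with any compared library left out. With the 4 libraries alone, 325 intervals were higher and 271 lower, and 336 genes were higher and 443 lower.

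The difference between backgrounds gave 2 intervals as deposited, 0 with no trend, 1 with the 8 libraries of the contrast, 1 without the etomoxir + SB204990 library of set 2 (chosen after seeing the data) and 0 to 1937 with a library left out, and as shares 0 to 1596 (both highest counts without etomoxir + SB204990 of set 1). The causes were not tested. Deviations of same-numbered libraries correlated above 0.1 in 3 of 15 pairs of treatments (-0.15 to 0.35). For the 2 compared treatments the correlation was 0.03 as deposited. A correlation across intervals cannot show an offset that all intervals of a set share, so it does not settle whether the sets pair the libraries.

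Among the items the text names, the replicate block newly called the Abcg1 (adjusted p of 0.0162), Arid1a (0.0241), Il18rap (0.0241) and Cyp26a1 (0.0307) intervals and the gene Abcg1 (0.0437), all lower as deposited, and a mean of at least 50 the first 3 intervals (0.0285 each, limma with Benjamini-Hochberg adjustment). Without etomoxir + SB204990 + acetate of set 2, S100a4 (-0.48) and Sox9 (-0.46) were lower as deposited. With the 4 libraries alone, 30 of 61 recomputed genes and 12 of 13 recomputed intervals were newly called as shares. Of all 19458 genes tested that setting called 336 higher and 443 lower. The recomputed items were named in part for their values in these same libraries.

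Directions turned, with no call of a turned value, with a library left out for the Gm42418 interval (-0.27 to 0.39) and, as deposited, for S100a4 (-0.48 to 0.0013), Rpl13 (-0.47 to 0.085), Gapdh (-0.39 to 0.075), Cebpg (-0.27 to 0.058) and Sox9 (-0.46 to 0.062), and as shares for Acss2 (-0.12 to 0.020), Itga5 (-0.056 to 0.022) and Crebbp (-0.034 to 0.020). The turn of the 5 deposited genes came without etomoxir + SB204990 + acetate of set 1. As shares they also turned for Cpt1a with promoter intervals only (-0.15), and with median-of-ratios scaling for the median gene (0.050), Acss2 (0.029), Itga5 (0.066) and Crebbp (0.076). Depth limits intervals under about 10 reads, which were not tested.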
